A study of Arvicanthis niloticus with 28 samples.

Results

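Nile rats whose retinas held 10 to 16 acellular capillaries per mm2 were compared with rats that held fewer than 8, to ask whether vessel gene expression already differed within the range of density considered normal. Rats were chosen by the density that the sample labels give: 11 rats formed the high-normal group and 10 the low group, so 21 of the 28 rats of the series entered. The 3 rats of 8 to 10 per mm2 and the 4 pre-dropout rats of 17 to 18 per mm2 stayed out of the main test. Their levels are given only for reference, and some of the alternative fits included them. The Nile rat (Arvicanthis niloticus) is a diurnal rodent that becomes diabetic on calorie-rich chow. All rats were labelled wild type and untreated, and 1 RNA-seq library was made from the retinal vasculature of each. Diet, age and duration of diabetes of the single rats were not given in the labels, so neither group is a diabetic or a control group.

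An acellular capillary is a tube of basement membrane that has lost its endothelial cells and its pericytes and no longer carries blood. Loss of pericytes, the contractile cells that wrap the capillary, and of the endothelial cells that line it and form the blood-retina barrier is among the earliest lesions of diabetic retinopathy. The vessels had been freed from the retina by osmotic lysis and washing, which leaves a variable amount of neural tissue on them. In such a bulk sample, fewer cells of a type and less RNA per cell cannot be told apart.

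The high-normal rats had between 10.1 and 14.5 acellular capillaries per mm2, with a mean of 11.7 ± 1.26 (SD, n = 11). The low rats had between 5.90 and 7.82, with a mean of 6.69 ± 0.649 (SD, n = 10). There were 5 males and 6 females in the high-normal group and 2 males and 8 females in the low group (Fisher's exact test, two-sided p = 0.3615). Random blood glucose had a median of 75.6 mg/dL in high-normal rats (56.7 to 422.4) and of 64.6 mg/dL in low rats (52 to 146.9). Only high-normal rats exceeded 200 mg/dL, namely 3 of 11 (T370M, T392F and T446M), against 0 of 10 low rats (Fisher's exact test, two-sided p = 0.2143). The mean glucose was 144 ± 132 mg/dL in high-normal and 76.9 ± 32.5 mg/dL in low rats. The test found no difference between these means (two-sided permutation test, p = 0.165, 0.480 after Benjamini-Hochberg adjustment over 5 measures).

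**Figure D1:**
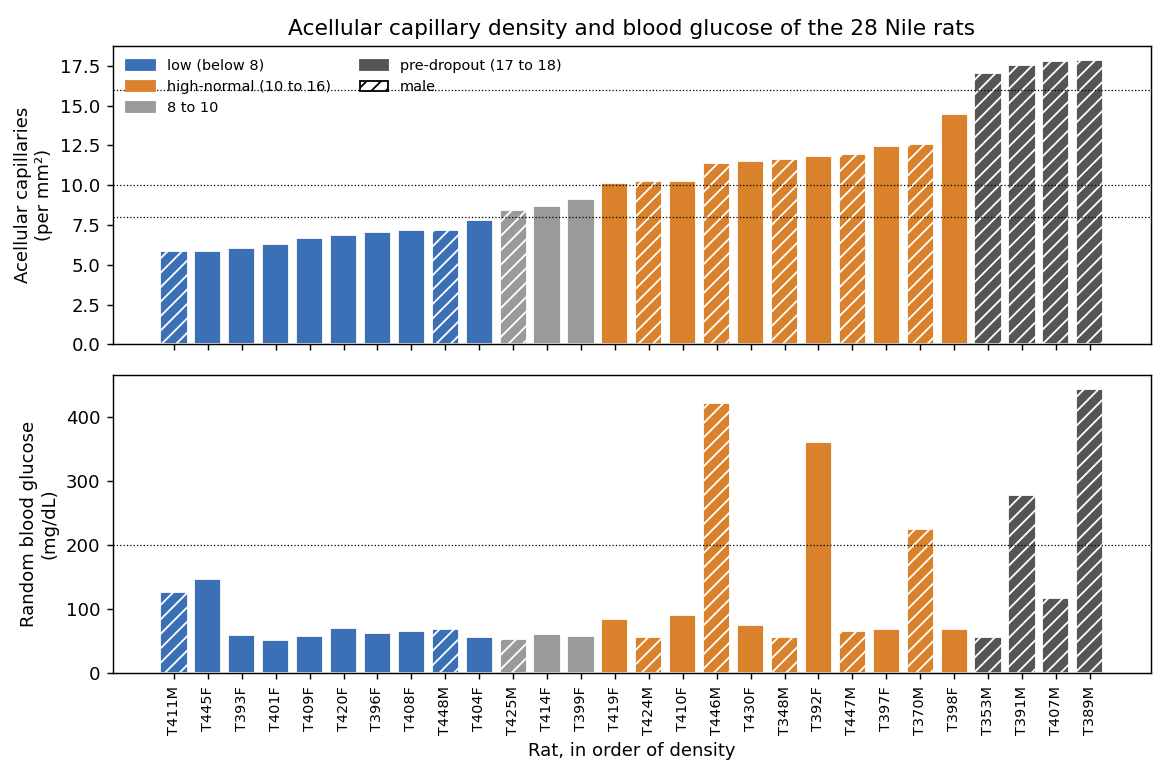
Acellular capillary density (upper bars, per mm2) and random blood glucose (lower bars, mg/dL) of the 28 rats in order of density, coloured by group and hatched for males. The 10 low rats lie below 8 per mm2 and the 11 high-normal rats between 10 and 16, the 4 pre-dropout rats are all male, and 3 high-normal rats stand above the dotted line at 200 mg/dL.

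Library totals ran from 153111 (T410F, high-normal) to 10029207 expected counts (T424M, high-normal), and 7502 to 15238 genes had at least 1 count. No difference between the groups was found in totals or detected genes (permutation p = 0.708 and 0.792) or in the share of counts in mitochondrially encoded genes (19.4% ± 8.62 in 11 high-normal and 23.0% ± 7.77 in 10 low rats, permutation p = 0.335). The labelled sex matched the Y-linked genes Eif2s3y and Kdm5d in 21 of 21 libraries. Both defining markers of the vessel wall, endothelial Pecam1 and pericyte Rgs5, were detected in each library, Pecam1 at 347 CPM (counts scaled to a library of 1000000) or more.

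The rats did not separate by density group. Spearman's rank correlation between 2 rats, across the tested genes, had a median of 0.639 within the high-normal group, 0.652 within the low group and 0.655 between the groups, as a description over 55, 45 and 110 pairs. The first principal component of the 500 most variable genes held 49.2% of the variance and ran with the number of genes detected. Its negative end held 7 rats with over 12000 detected genes, of which 4 were high-normal and 3 low. In these 7 rats the summed endothelial markers reached 3266 to 5591 CPM and the summed pericyte markers 1949 to 4139 CPM, against 5970 to 14606 and 5094 to 13083.5 CPM in the other 14. The amacrine, horizontal and ganglion cell markers of the 7 summed to 925 to 1705 CPM, against 124 to 1157 CPM in the other 14.

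**Figure D2:**
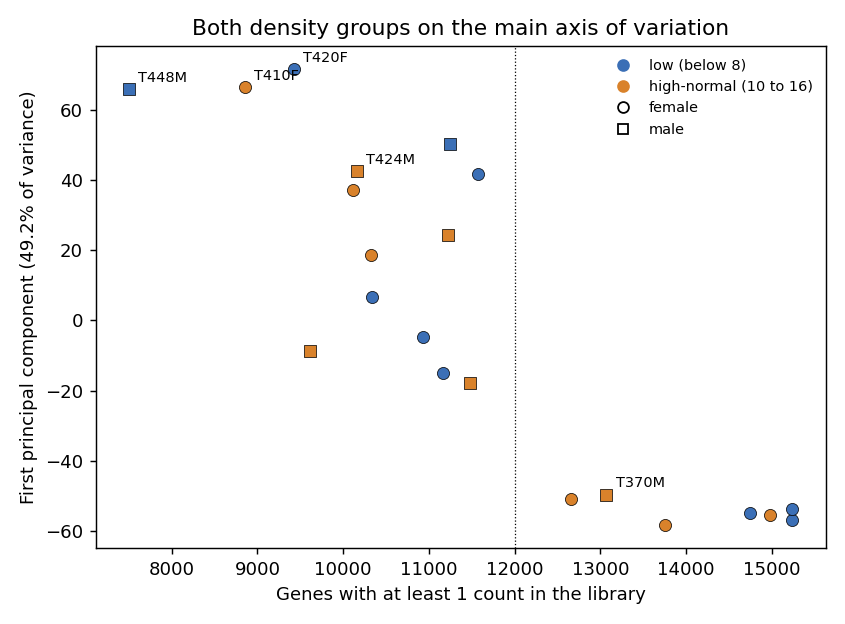
First principal component of log2 CPM (y axis, 49.2% of variance) against the number of genes with at least 1 count (x axis) for the 21 rats, coloured by density group, with squares for males. Rats of both groups lie at both ends, and the dotted line marks 12000 detected genes.

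No gene passed the test. Over 10954 genes, the quasi-likelihood test of edgeR (p-values adjusted by Benjamini-Hochberg) called 0 genes (0% of those tested) at an adjusted p under 0.05 with more than 2-fold change, and 0 at any fold. The smallest adjusted p was 0.999999 and the smallest unadjusted p was 0.00651. An unadjusted p under 0.05 was reached by 47 genes (0.429%), 28 higher (0.256%) and 19 lower (0.173%) in high-normal rats. If no gene differed, about 1 in 20 tested genes would reach it by chance, so 0.429% is below that share. Why the share was so low was not tested. DESeq2, limma-voom with sample weights and limma on log2(TPM + 1) also called 0 genes. At an unadjusted p under 0.05 they had 284 (1.62% of 17500), 235 (2.15% of 10954) and 240 genes (2.19% of 10954). No tested gene had groups whose CPM values did not overlap.

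Between rats the biological coefficient of variation was 1.10, and the median standard error of a log2 fold change (high-normal minus low) was 0.70. A fitted change of more than 2-fold was seen for 700 genes, none of which passed the adjusted threshold. The 95% interval of the fold change lay wholly within 2-fold for 2162 genes (19.7%), and for the others a 2-fold difference in 1 direction or both lay inside the interval. All tested genes together had a median log2 fold change of 0.060, with 6113 genes above 0 and 4841 below. This baseline, beside which the list medians stand, was -0.028 with upper-quartile scaling, -0.023 in limma-voom, -0.011 among females and 0.38 among males.

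The genes of the capillary wall gave narrower intervals than most. Over 5 lists of wall genes, 73 genes were tested, none had an unadjusted p under 0.05, and 40 were fitted above 0 and 33 below (median log2 fold change 0.025). The interval lay within 2-fold for 48 of the 73. Most wall genes are abundant: 60 of the 73 averaged at least 6 on the log2 CPM scale, of which 48 had such an interval, beside 63.9% of all 2949 tested genes at that abundance.

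Endothelial identity genes gave 12 of 18 fitted values above 0 (median 0.041), with 14 of 18 intervals within 2-fold. The balance turned to 7 of 18 with upper-quartile scaling (median -0.068) or with sex as a covariate (-0.077), to 6 of 18 with sex and glucose (-0.17) and to 4 of 18 among females (-0.12). Pecam1, the junctional adhesion molecule of endothelial cells, lay between 347 and 1896 CPM in high-normal rats (median 631) and between 350 and 1217 in low rats (median 558). These ranges overlap almost wholly, and the log2 fold change was 0.21 (95% interval -0.41 to 0.84). Cdh5 (VE-cadherin) was near level between the groups, at a median of 261 CPM (91.6 to 538) in high-normal and 205 CPM (107 to 479) in low rats. Its log2 fold change was 0.03 (-0.62 to 0.67), and its sign changed under upper-quartile scaling. Flt1, a VEGF receptor that acts as a decoy, gave -0.31 (-0.92 to 0.29), and Ptprb, the phosphatase that restrains the Tie2 receptor, gave -0.36 (-0.95 to 0.23).

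Junction and transporter genes of the blood-retina barrier gave 6 of 18 fitted values above 0 (median -0.071), with 16 of 18 intervals within 2-fold. Cldn5, the main claudin of the barrier, lay between 834 and 4748 CPM in high-normal rats (median 2297) and between 789 and 4445 in low rats (median 2902). The groups overlap, and the log2 fold change was -0.12 (-0.76 to 0.53). Mfsd2a, the transporter that keeps transcytosis low, gave -0.41 (-0.999 to 0.18), at 119 ± 39.4 CPM in 11 high-normal rats and 158 ± 66.8 in 10 low rats. Marveld2 (tricellulin), which seals the corners where cells meet, gave 0.96 (-0.26 to 2.18), the widest departure in the list.

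Pericyte genes gave 8 of 13 fitted values above 0 (median 0.0062), with 7 intervals within 2-fold. Pdgfrb, the receptor that recruits pericytes, lay between 71.8 and 792 CPM in high-normal rats (median 224) and between 116 and 511 in low rats (median 218), with a log2 fold change of 0.20 (-0.49 to 0.89). Rgs5, the most abundant of these markers, had a median of 4259 CPM (2426 to 8224) in high-normal rats and of 4606 CPM (1278 to 8959) in low rats. The groups overlap, and its log2 fold change was -0.08 (-0.76 to 0.60). Higd1b, another pericyte marker, was at 0 in 7 of 11 high-normal and 4 of 10 low libraries, and its value of -2.20 had an interval of -4.97 to 0.56. T448M held 61.9% of its low total, and without that rat the value was -0.99. Among females the fitted values were below 0 for 11 of 12 pericyte genes (median -0.24), with 1 at an unadjusted p under 0.05. With upper-quartile scaling 3 of 13 were above 0 (median -0.12).

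Smooth muscle genes gave 5 of 8 fitted values above 0 (median 0.15), with Acta2, the smooth muscle actin, at -0.09 (-0.89 to 0.71). Basement membrane genes, whose product is what remains of an acellular capillary, gave 9 of 16 above 0 (median 0.088). The collagen IV chains stood at the upper end: Col4a2 had a median of 786 CPM (406 to 2633) in high-normal rats and of 624 CPM (174 to 910) in low rats. Its highest values came from T424M, the groups overlap, and the log2 fold change of 0.53 (-0.12 to 1.18) had an unadjusted p of 0.108 in edgeR. Col4a1, its partner chain, gave 0.43 (-0.35 to 1.21).

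**Figure D3:**
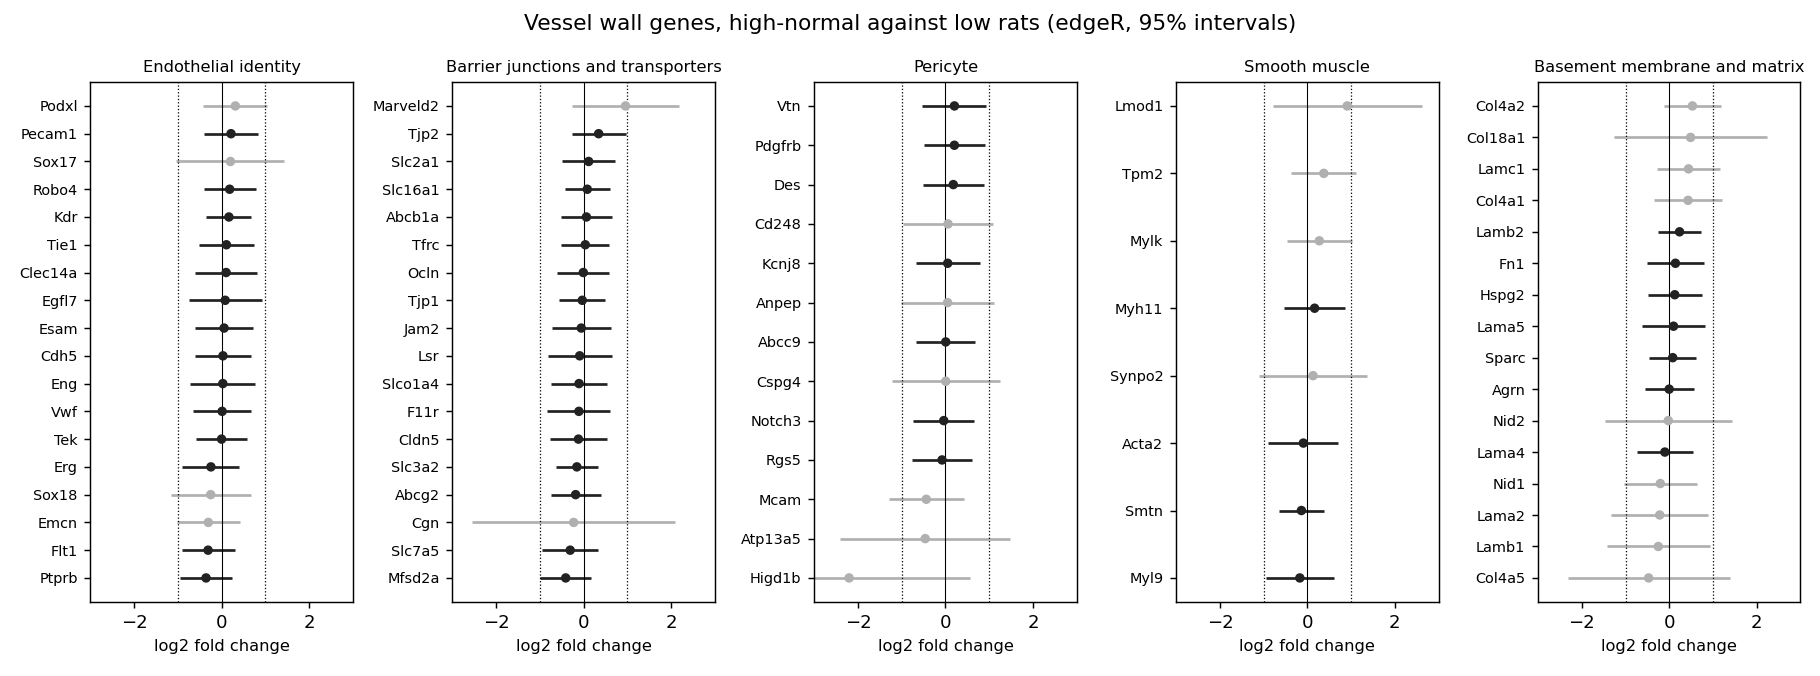
Fitted log2 fold change, high-normal minus low (x axis), with 95% intervals from edgeR for the tested genes of 5 vessel wall lists (y axis), black where the interval lies within the dotted lines at 2-fold and grey elsewhere. Black intervals number 14 of 18 endothelial, 16 of 18 barrier, 7 of 13 pericyte, 4 of 8 smooth muscle and 7 of 16 matrix genes, and the interval of Higd1b runs past the left edge.

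The genes of smallest unadjusted p, among those with counts in 15 or more libraries, are described next as values, since none passed the adjusted threshold. Gpc4, a glypican (a heparan sulfate proteoglycan held on the cell surface), had the smallest p of all. It lay between 35.1 and 172 CPM in high-normal rats (median 56.4) and between 14.7 and 71.5 in low rats (median 32.7). The 4 highest high-normal rats (T348M, T392F, T430F and T410F, whose library held only 153111 counts) stood above all low rats. The other 7 fell within the range of the low rats. The mean was 77.8 ± 45.1 CPM (SD, n = 11) against 36.3 ± 16.8 (n = 10), a log2 fold change of 1.10 (0.33 to 1.86; edgeR unadjusted p = 0.00651). Among females alone it was 1.41 with an unadjusted p of 0.0035, and the 4 pre-dropout rats averaged 44.2 CPM, nearer the low mean.

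Bst2 (tetherin), an interferon-induced protein that holds budding virus at the membrane, had a median of 81.6 CPM (15.8 to 159) in high-normal rats and of 41.6 CPM (13.9 to 60.3) in low rats. Of the high-normal rats 7 stood above the median of all 21 rats, and 3 of the low rats did. The log2 fold change was 1.07 (0.26 to 1.88; edgeR unadjusted p = 0.0115), and 0.35 in limma-voom with an unadjusted p of 0.42. Of the interferon and MHC class I list, 10 of 18 genes were fitted above 0 (median 0.040), among them Mx1 at 0.36, and 1 of 18 (Bst2) had an unadjusted p under 0.05.

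Dnase2a, the acid DNase of lysosomes that degrades the DNA of engulfed cells, split the rats 9 to 1, with 9 high-normal rats and 1 low rat above the median of the 21. Its median was 15.2 CPM (5.78 to 62.6) in high-normal rats and 2.43 CPM (0 to 13.0) in low rats, where 4 of 10 libraries were at 0. The log2 fold change was 2.43 (0.44 to 4.42; edgeR unadjusted p = 0.0186). Ppp2r5d, a regulatory subunit of the phosphatase PP2A, split the same way, at 90.1 ± 32.2 CPM against 57.3 ± 15.9 (log2 fold change 0.65). Mrps18a, a protein of the mitochondrial ribosome, gave 1.95 at 32.0 ± 31.2 against 8.22 ± 5.34 CPM.

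Car4, the membrane carbonic anhydrase found on capillary endothelium, had a median of 285 CPM (55.9 to 596) in high-normal rats and of 171 CPM (68.9 to 271) in low rats. The groups overlap, the log2 fold change was 0.78 (0.08 to 1.49; edgeR unadjusted p = 0.0311), and the pre-dropout rats averaged 311 CPM. In limma-voom the log2 fold change of Car4 was 0.15 with an unadjusted p of 0.66. Sumo3, a ubiquitin-like modifier, gave 0.72, Tmem170b, a membrane protein, gave 1.23, Mpp5 (Pals1), a scaffold of cell polarity, gave 0.96, and Scaf8, a factor that binds RNA polymerase II, gave 0.97. Lad1, an anchoring filament protein of basement membranes, gave 2.60, but T424M held 66.5% of its high-normal total and the value was 1.198 without that rat. That rat was the highest of its group for 5 of the 12 higher genes (Mpp5, Sumo3, Lad1, Car4 and Scaf8), and without it 7 of the 12 kept an unadjusted p under 0.05.

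Among the 12 genes lower in high-normal rats, Slc17a5 (sialin), which exports sialic acid from lysosomes, split the rats 1 to 9, with 1 high-normal rat and 9 low rats above the median of the 21. It lay between 0 and 33.7 CPM in high-normal rats (median 13.2) and between 21.9 and 50.3 in low rats (median 32.0). Only T430F of the high-normal rats stood above the lowest low rat, and the log2 fold change was -1.70 (-3.30 to -0.10; edgeR unadjusted p = 0.0385). Glb1, the lysosomal beta-galactosidase, had a median of 8.45 CPM (0 to 39.7) against 28.9 CPM (7.39 to 157), a log2 fold change of -1.80 (-3.34 to -0.26). Stard3nl, a late endosomal protein that tethers endosomes to the endoplasmic reticulum, had a median of 19.3 CPM (0.26 to 46.6) against 48.6 CPM (26.7 to 107). Its log2 fold change was -1.35 (-2.46 to -0.25; edgeR unadjusted p = 0.0176), with 2 high-normal and 8 low rats above the median of the 21.

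Nrp2 and Pdgfb, which belong to the VEGF response and tip cell list, were the 2 of its 15 tested members with an unadjusted p under 0.05. Nrp2, a co-receptor for VEGF-C and semaphorins marking veins and lymphatics, lay between 0 and 14.1 CPM in high-normal rats (median 6.74) and between 0 and 81.8 in low rats (median 19.8). Its log2 fold change was -2.22 (-4.17 to -0.28; edgeR unadjusted p = 0.0267). Its highest high-normal value came from T410F, the library of only 153111 counts. Pdgfb, the endothelial ligand by which pericytes are recruited, had a median of 33.9 CPM (14.9 to 83.6) in high-normal rats and of 64.3 CPM (32.7 to 135) in low rats. The groups overlap, its log2 fold change was -0.74 (-1.48 to -0.01; edgeR unadjusted p = 0.0463), and the pre-dropout rats averaged 90.4 CPM, above both groups. Without T420F the value was -0.68 with an unadjusted p of 0.073, and without T370M it was -0.71 with 0.065. The list as a whole gave 10 of 15 fitted values above 0 (median 0.12).

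The remaining lower genes were 1700037H04Rik, a gene of unassigned function (-2.87), Skap2, an adaptor of leukocyte and integrin signaling (-1.06), Limk1, a kinase of actin turnover (-2.49), Eif4h, a translation initiation factor (-0.57), Macrod1, an ADP-ribose hydrolase (-1.72), Jund, an AP-1 transcription factor (-0.84), Acbd3, a Golgi scaffold (-0.73), and Pyurf (-1.71). Eif4h was the most abundant of them, at 259 ± 57.9 CPM in 11 high-normal rats and 385 ± 192 CPM in 10 low rats. T420F was the highest low rat for 7 of the 12 lower genes, and without it 5 of the 12 kept an unadjusted p under 0.05. Without T411M 6 of the 12 did, and without T448M 7 of the 12. The value of 1700037H04Rik was -2.25 without T420F and that of Limk1 -1.89 without T448M. All 24 genes, higher and lower, kept their direction on leaving out any 1 rat. They also kept it under each of the 19 other scalings, filters, tests, covariates and sample sets. The main fit picked these genes, so refits that reuse its rats favour the same direction and give no independent evidence. Among females alone, only 4 of 12 higher and 4 of 12 lower genes had an unadjusted p under 0.05. In limma-voom, 3 of 12 higher and 7 of 12 lower genes did.

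**Figure D4:**
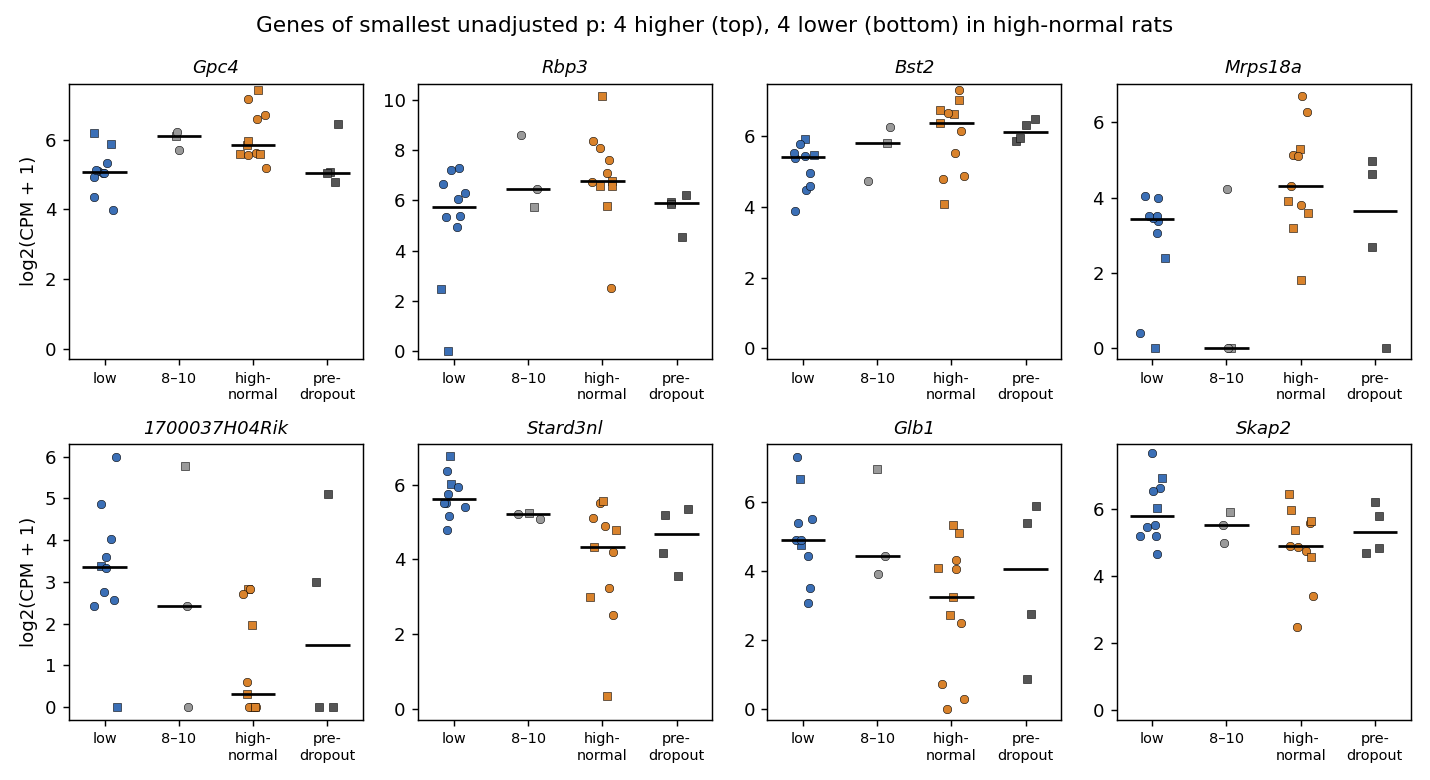
Level of 8 genes on the log2(CPM + 1) scale (y axis) in the 28 rats by density group (x axis), squares for males and lines for medians: the 4 genes of smallest unadjusted p higher in high-normal rats (top) and the 4 lower (bottom). High-normal and low rats overlap for every gene shown. The rats of 8 to 10 and of 17 to 18 per mm2 did not enter the main test.

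The rats left out of the test did not choose these genes, but the 2 group means beside which they are set did. For the 12 higher genes, the 4 pre-dropout rats had a mean above the low mean for 10, but above the high-normal mean for 1 (Car4). For the 12 lower genes it lay below the low mean for 10, but below the high-normal mean for 0, so for 9 and 10 genes it fell between the means of the groups compared. The 3 rats of 8 to 10 per mm2 had means between those of the 2 groups for 5 of the 12 higher and 8 of the 12 lower genes. The 24 genes were picked for the distance between the means of the 2 groups compared, so any other rats tend to fall between those means. The same count over all tested genes was not made, so no conclusion is drawn from it. All 4 pre-dropout rats are male.

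Photoreceptor markers gave one-sided list values, and these moved with 1 rat. Rod genes were fitted above 0 for 14 of 14 tested members (median 0.9998), and cone genes for 8 of 9 (median 1.28). Sag, the rod arrestin, gave 1.18, Pde6c, the cone phosphodiesterase, gave 2.37, and Rbp3, the retinoid carrier secreted by photoreceptors, gave 1.80 (edgeR unadjusted p = 0.00888). Without T370M these were 0.43 for Sag, 0.99 for Pde6c and 1.09 for Rbp3, the last with an unadjusted p of 0.073. T370M, a high-normal male with a glucose of 225.7 mg/dL, was the highest of the 21 rats for 12 of 14 rod genes and 8 of 9 cone genes. Its summed rod markers reached 5780 CPM, against 428 to 1715 CPM in the other 10 high-normal rats and 413.6 to 1332 CPM in low rats.

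Without T370M the rod median was 0.29 (10 of 12 above 0) and the cone median 0.11 (7 of 9). Among females the rod median was 0.43 and without the 3 rats above 200 mg/dL it was 0.35. The summed rod markers averaged 1453 ± 1506 CPM in 11 high-normal rats, 1020 ± 480 CPM in the 10 without T370M, and 840 ± 350 CPM in 10 low rats. Bipolar cell genes (5 of 9 above 0, median 0.023) and amacrine, horizontal and ganglion cell genes (8 of 14, median 0.019) lay near level. Müller glia and astrocyte genes gave 10 of 14 above 0 (median 0.096), with Gfap, the astrocyte filament, at 0.64 (-0.78 to 2.05) and Dkk3 at 0.44. The part of retained neural tissue in the photoreceptor values was not tested.

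**Figure D5:**
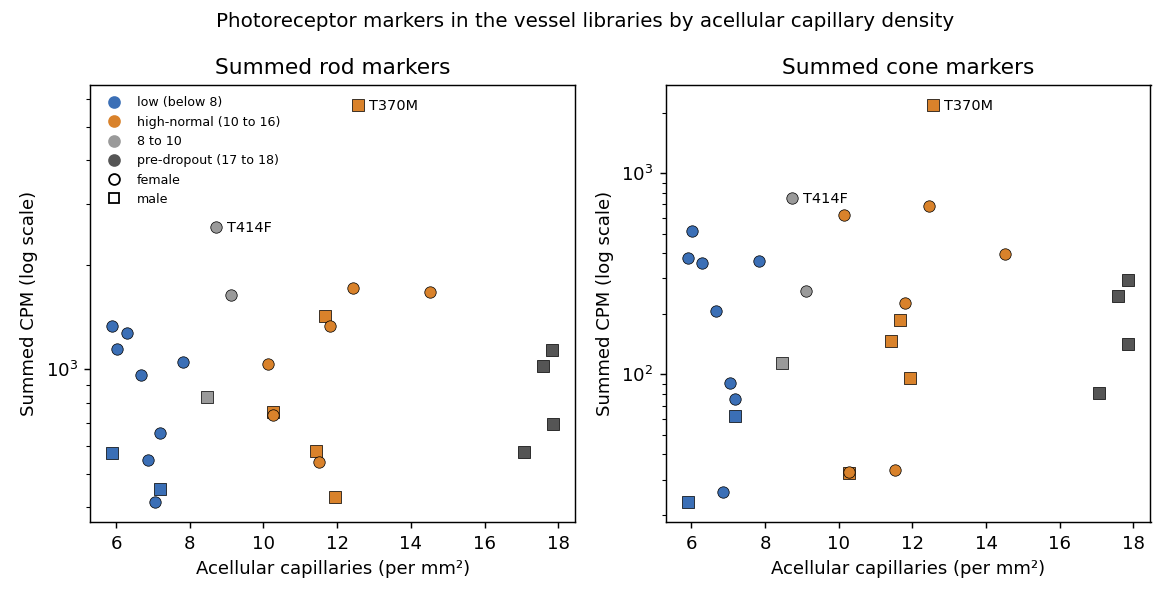
Summed CPM of rod (left) and cone (right) markers on a log axis (y) against acellular capillary density per mm2 (x) for the 28 rats, coloured by group, with squares for males. T370M stands highest in both, at 5780 CPM for rods and 2191 CPM for cones, and the other 10 high-normal rats overlap the low rats.

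Lipid transport genes gave 14 of 15 fitted values above 0, with a median of 0.32. Abcg1, which exports cholesterol to high-density lipoprotein, had a median of 66.0 CPM (37.2 to 109) in high-normal rats and of 39.2 CPM (4.92 to 61.0) in low rats. Its log2 fold change was 0.81 (0.06 to 1.55; edgeR unadjusted p = 0.0349), and 0.67 without T420F, its lowest rat. Lrp8, a receptor for apolipoprotein E and reelin, had a median of 137 CPM (32.1 to 354) against 85.0 CPM (27.5 to 162), a log2 fold change of 0.83 (0.05 to 1.61; edgeR unadjusted p = 0.0383). Smaller fitted values came from Npc1 (0.59), which moves cholesterol out of lysosomes, the lipoprotein receptor Scarb1 (0.34) and Apoe (0.27). Fabp5, a fatty acid carrier, had the opposite sign at -1.53. Among females the list gave 11 of 16 above 0 (median 0.13), and among the 7 rats with over 12000 detected genes 12 of 18 (median 0.095).

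Genes of glycolysis and the polyol pathway, by which high glucose is used and diverted, gave 17 of 20 fitted values above 0 (median 0.11), with 12 intervals within 2-fold and 0 genes at an unadjusted p under 0.05. Pgk1, a glycolytic kinase, was at 303 ± 75.8 CPM in 11 high-normal and 242 ± 84.9 CPM in 10 low rats (log2 fold change 0.31, -0.17 to 0.80). Sord, the second enzyme of the polyol pathway, gave 1.39 and Akr1b3, the first, gave 0.08. Among females 10 of 20 were above 0 (median -0.019). Nuclear genes of oxidative phosphorylation gave 12 of 20 above 0 (median 0.066), and mitochondrially encoded genes 2 of 7 (median -0.25). In the latter, mt-Cytb gave 2.69 with an interval of -0.53 to 5.91, where T348M and T419F were at 6721 and 4689 CPM and 7 of the other 9 high-normal rats were under 5 CPM. In low rats T445F held 91.7% of the mt-Cytb total, and the value was 6.05 without T445F and 1.63 without T348M.

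Cytosolic ribosomal protein genes gave 17 of 22 fitted values below 0 (median -0.10), with 15 intervals within 2-fold and 0 genes at an unadjusted p under 0.05. Among the 7 rats with over 12000 detected genes the list turned, with 16 of 22 above 0 (median 0.17). The 3 tested erythrocyte genes were below 0 (median -0.96), and in the same 7 rats 4 of 5 were above 0 (median 0.73). Hba-a2, an alpha globin, had a median of 301 CPM (49.1 to 1055) in high-normal rats and of 408.01 CPM (64.3 to 2175) in low rats, which overlap widely (log2 fold change -0.96, edgeR unadjusted p = 0.0858).

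Hypoxia response genes gave 11 of 17 fitted values above 0 (median 0.12), with Hif1a, the oxygen-sensitive transcription factor, at 0.51 and Vegfa at 0.12. Apoptosis genes gave 10 of 20 above 0 (median -0.0063), from Bax at -0.50 to Cdkn1a, the p53-induced cell cycle inhibitor, at 1.38. Leukocyte adhesion and inflammation genes gave 7 of 10 (median 0.071), with the endothelial adhesion receptors Icam1 at 0.02 and Vcam1 at 0.09 and the interleukin-1 receptor Il1r1 at -0.87. None of these 3 lists had a member at an unadjusted p under 0.05. Microglia and macrophage genes were mostly too low to test, with 2 of 15 tested (Cd68 at -0.33 and Ctss at -0.09). Their summed level had a median of 30.9 CPM in high-normal and 29.6 CPM in low rats.

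Signaling lists lay near the median of all genes. Angiopoietin and Norrin/Wnt genes gave 6 of 15 above 0 (median -0.026), Notch genes 8 of 15 (median 0.079), with the ligand Jag1 at 0.50, and TGF-beta and BMP genes 13 of 20 (median 0.082). Flow-responsive and vasoactive genes gave 10 of 15 (median 0.14), with Plat, the tissue plasminogen activator, at 0.26. Antioxidant genes gave 10 of 19 (median 0.058) and cell division genes 5 of 11 (median -0.15). Unfolded protein response genes gave 13 of 18 (median 0.16), with the chaperone Hspa5 at 0.16. Immediate early genes gave 6 of 12 (median 0.028), with Jund as the 1 member at an unadjusted p under 0.05. In the other lists of this group no member reached it.

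Of the pre-dropout genes that the text of the study names, Tal1 and Il20rb could be tested here. Its further pre-dropout genes, which that text does not name, were not looked up as such. Tal1, an endothelial and blood cell transcription factor, gave 0.51 (-1.34 to 2.36), and its sign turned among females (-0.47). Il20rb, a subunit of receptors for interleukins of the IL-10 family, gave 0.07 (-1.94 to 2.07), at a median of 10.8 CPM in high-normal and 9.46 CPM in low rats. Birc5, an inhibitor of apoptosis, Abcb11, a bile salt exporter, and Pctp, a phosphatidylcholine carrier, were too low to test, at means of 3.59, 1.69 and 4.79 CPM in high-normal rats and 1.94, 0.914 and 8.998 CPM in low rats. Bcl2a1a had no count in any of the 21 libraries, and Bcl2a1d had counts in 1. The Bcl2a1 symbols are those of near-identical mouse copies, and whether reads were split among them was not tested.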

How the data were processed

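The labels gave density, sex and glucose, and the study's methods its unit. The authors deposited expected counts and TPM of 18970 genes under mouse symbols, which were taken here as values of CRSP. The paper describes CRSP as joining several strategies across species, among them assembly of new transcripts and mapping to mouse transcripts. The version of its aligner is not given in the sources used here, and expression mapped on the Nile rat assembly was not used here. Assignment through mouse genes can lose diverged genes and merge copies.

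Expected counts were rounded. The test was edgeR 4.0.16 in R 4.3.3 (quasi-likelihood, TMM scaling, filterByExpr with a minimum count of 10, Benjamini-Hochberg adjustment, no covariate) over the 21 rats, on 10954 genes. Calls needed more than 2-fold change with an adjusted p under 0.05. Standard errors were taken from the fold change and the F statistic, and 95% intervals from them. CPM were scaled by TMM over the 28 rats. Single values used 100000 two-sided permutations (SciPy 1.17.1). Each library is 1 rat, so the spread is between animals. A count of 0 allows up to 3 counts of a library's total by counting error alone.

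Members and the 35 gene lists were chosen with earlier results of these data known. Named genes are the 12 of smallest unadjusted p in each direction with counts in 15 or more libraries, the called or else the 2 of smallest p in each list, 10 cell markers and the genes that the text of the paper names. One further item that this rule names is not reported here. Further members are named as examples, chosen after their values were seen. Lists are described by counts and medians without a test. The lists of lens, pigment epithelium and other leukocyte markers had 1 tested member each (Bfsp1 1.01, Tyrp1 0.91, Ptprc 0.51), and the sex-linked list had 2 (Ddx3y 1.71, Uty 0.43), none at an unadjusted p under 0.05. DESeq2 1.42.0, limma 3.58.1 and other scalings, filters, covariates and subsets served as alternatives. The limma-voom fit used sample weights throughout, so single rats could count for more or less than in edgeR. The test was tried on simulated data. No coordinates are given, since the counts carry mouse gene symbols.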

Additional observations from a re-analysis of the deposited data

Results flagged for a closer look

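In the group of low rats, 101 sets of values were checked for 1 rat far from the other 9. They were 96 gene levels on the log2(CPM + 1) scale and the glucose and library measures. Of the 101, 8 were flagged, all of them gene levels, and chance sets apart about 1 in 20 such groups. The rat T420F was the lowest for Tmem170b (0.154 CPM, the next at 13.2) and Abcg1 (4.92 CPM, the next at 32.6), and the highest for the Notch ligand Jag1 (159 CPM, the next at 70.1). The rat T448M was the lowest for the replication clamp Pcna (0 CPM, the next at 15.1), for G6pdx of the pentose phosphate pathway (0 CPM, the next at 19.7) and for Sel1l of protein quality control in the endoplasmic reticulum (19.2 CPM, the next at 72.9). T396F was the lowest for the polarity gene Mpp5 (10.4 CPM, the next at 27.1), and T445F for the complex I gene Ndufs1 (19.5 CPM, the next at 46.0). The group of 11 high-normal rats is too large for this check.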

How the results depend on the processing

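The count of called genes stayed at 0 under 21 alternatives to the test, of which 2 (males only, and the 7 rats with over 12000 detected genes) were chosen after seeing the data, and on leaving out each of the 21 rats. DESeq2's 271 adjusted p-values given as NA were kept so. The count at an unadjusted p under 0.05 moved: 28 higher and 19 lower became 11 and 33 with upper-quartile scaling, 418 and 1136 without a filter on low counts, 199 and 85 in DESeq2, 100 and 135 in limma-voom, 17 and 44 among females, 370 and 38 among males (5 against 2 rats), 130 and 28 with library total and detected genes as covariates, 53 and 150 with all 28 rats, and 22 and 38 without T424M. Of the genes tested in each fit, both directions together made 0.429% in the main fit and 0.402% with upper-quartile scaling. They made 8.88% (of 17500) without a filter, 1.62% (of 17500) in DESeq2 and 2.15% in limma-voom. The share was 0.506% among females, 3.43% among males, 1.44% with the library covariates, 1.42% with all 28 rats and 0.552% without T424M. Of these shares, only that without a filter exceeded 1 in 20. No paired analysis was possible because the labels give no replicate numbers that the groups share. Of 96 named genes tested, 73 kept their direction under the other 19 alternatives and without any 1 rat. The others changed sign as follows, the cause of which was not tested.
With limma-voom, Cxcl12 was -0.32, Prdx2 -0.020, Gpx4 0.035, Plat -0.15, Cd68 0.29, Ctss 0.77, Ptprc -0.28, Pecam1 -0.21, Cdh5 -0.18, Pdgfrb -0.0031 and Acta2 0.25. With limma on log2(TPM + 1), Thy1 was 0.11, Ctss 0.65, Ptprc -0.019, Il20rb -0.055, Rgs5 0.091 and Acta2 0.044, and with 0.1 added instead, 0.59, 1.25, -0.47, -0.0027, 0.091 and 0.045. Among females, Mx1 was -0.017, Sdhb -0.017, G6pdx -0.37, Otx2 -0.084, Tal1 -0.47, Cdh5 -0.088 and Pdgfrb -0.28. With library total and detected genes as covariates, Ctss was 0.044, Ptprc -0.61, Il20rb -0.31 and Cdh5 -0.097. With sex as a covariate, Ddx3y was -0.87, Tal1 -0.014 and Cdh5 -0.038, with glucose Il20rb -0.24, and with both Ddx3y -0.67, Il20rb -0.23 and Cdh5 -0.053. As a slope over 24 rats (per 5 per mm2), Il20rb was -0.046, Pecam1 -0.062, Cdh5 -0.21 and Pdgfrb -0.10. With the rats of 8 to 10 per mm2 joined to the low group, Cdh5 was -0.042 and Acta2 0.044. With upper-quartile scaling Cdh5 was -0.063. Without T410F, the library under 500000 counts, Il20rb was -0.18, Cdh5 -0.042 and the difference in detected genes 1.3 in place of -260.7. Without the 3 rats above 200 mg/dL, Tyrp1 was -0.062 and Il20rb -0.19. Leaving out 1 rat gave ranges across 0 for Cdh5 (-0.12 to 0.18), Il20rb (-0.47 to 0.42), Ctss (-0.35 to 0.32), Pdgfrb (-0.061 to 0.38), Acta2 (-0.29 to 0.20), Rgs5 (-0.19 to 0.053), Otx2 (-0.026 to 0.82), Uty (-0.025 to 0.89) and Pcp2 (-1.21 to 0.18).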
